A study of Homo sapiens with 6 samples.

Results

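MET, MST1R and CAV2 were followed through the RNA of a lung cancer line and its resistant counterpart. MET and MST1R, which encodes the receptor RON, are paralogous receptor tyrosine kinases, and CAV2 encodes caveolin-2 and lies beside MET on chromosome 7. The 3 genes were taken by name from the 6641 genes of the deposited table, after Ensembl identifiers had been matched to symbols, and all 3 passed the filter on low values. The samples were 3 libraries labelled HCC827_Er and 3 labelled HCC827. HCC827 is an established line of lung adenocarcinoma with an activating EGFR mutation. By the title of the series the lines are a parental and a resistant one, by its design text the resistance is to EGFR tyrosine kinase inhibitors, while the labels name neither the drug, the way the resistant line was made, nor whether it is a single clone. No treatment at harvest is given for either line, and the labels do not say that the 3 libraries of each line were grown apart, so a p-value here measures no more than the spread among these libraries, which may be technical.

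MET is the receptor of hepatocyte growth factor (HGF), and RON that of macrophage-stimulating protein (MST1). Both ligands are secreted as inactive single chains that serine proteases at the cell surface cleave, and Kunitz-type inhibitors restrain those proteases. The bound receptors recruit adaptors to phosphorylated tyrosines of their tails and drive the ERK, PI3K and STAT3 pathways, and in lung cancer with mutant EGFR extra MET signalling is a known route around EGFR inhibitors. Caveolin-2 is a scaffold of caveolae, the small flask-shaped pits of the plasma membrane, where it assembles with caveolin-1.

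In GENCODE 29 on GRCh38, MET (ENSG00000105976) spans chr7:116672390-116798386 on the plus strand, CAV2 (ENSG00000105971) chr7:116287380-116508541 on the plus strand and MST1R (ENSG00000164078) chr3:49887002-49903873 on the minus strand. CAV2 ends 163.8 kb before MET begins, and CAV1, the caveolin-1 gene, lies between them. The sequence upstream of each start is shown because all 3 hold GC boxes, a feature the choice of the genes did not use. Each line holds the 250 bases before the start of transcription, from RefSeq on GRCh38.p14, read on the strand of the gene, and capitals mark the GC box GGGCGG or its reverse complement CCGCCC, the letters bound by Sp1-type factors. The windows are chr7:116671946-116672195 (plus) for MET, chr3:49903874-49904123 (minus) for MST1R and chr7:116499488-116499737 (plus) for CAV2, the upstream one of the 2 starts RefSeq lists for CAV2, which lies within the GENCODE span of the gene.
MET: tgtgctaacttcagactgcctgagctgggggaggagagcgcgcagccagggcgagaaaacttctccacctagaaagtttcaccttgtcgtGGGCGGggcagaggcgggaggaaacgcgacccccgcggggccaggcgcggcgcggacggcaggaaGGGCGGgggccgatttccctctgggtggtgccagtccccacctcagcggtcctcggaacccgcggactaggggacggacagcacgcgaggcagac
MST1R: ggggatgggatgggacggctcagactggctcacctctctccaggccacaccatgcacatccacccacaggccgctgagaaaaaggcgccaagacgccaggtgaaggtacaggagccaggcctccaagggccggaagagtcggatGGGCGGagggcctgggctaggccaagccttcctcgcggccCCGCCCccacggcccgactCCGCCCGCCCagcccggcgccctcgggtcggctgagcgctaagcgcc
CAV2: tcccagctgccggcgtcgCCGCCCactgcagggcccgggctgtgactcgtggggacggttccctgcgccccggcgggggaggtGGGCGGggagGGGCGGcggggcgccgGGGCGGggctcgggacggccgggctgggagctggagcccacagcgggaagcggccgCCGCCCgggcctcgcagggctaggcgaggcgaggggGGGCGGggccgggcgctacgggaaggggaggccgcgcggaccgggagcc
The GC box occurred 2 times in the MET window, 4 times in that of MST1R, where 1 pair of matches overlapped, and 6 times in that of CAV2. Of 35093 RefSeq windows of the same length, 42.6% held at least 1, 7.63% at least 4 and 2.21% at least 6. GC content was 68.4% for MET, 70.8% for MST1R and 83.2% for CAV2, against a median of 58.0% over all windows. The TATA box TATAAA and the AP-1 site TGACTCA, searched on both strands, had no match in the 3 windows, and 10.7% and 4.20% of all windows held them. Of the core letters ACGTG and GCGTG of the hypoxia response element, GCGTG occurred 1 time, in the MET window, and 32.2% of all windows held it.

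The deposited values were FPKM, read fragments normalised for transcript length and for how many fragments a library mapped. Depth could not be read from them, and the sum over the listed genes ranged from 184633 to 190415 FPKM across HCC827_Er libraries and from 222927 to 224211 FPKM across HCC827 libraries. Differences below are HCC827_Er minus HCC827 on the log2(FPKM + 1) scale from a limma fit, and a gene was called at a Benjamini-Hochberg adjusted p under 0.05 with a difference of at least 2-fold. The table is not a sample of the transcriptome. No HCC827_Er value fell within the range of the HCC827 values, or the reverse, for 96.1% of all listed and 97.1% of the 5276 tested genes. An adjusted p under 0.05 was reached by 98.3% of the tested genes (50.6% higher and 47.7% lower), and with the 2-fold minimum 44.4% were called, 24.7% higher and 19.7% lower. An adjusted p or a lack of overlap thus sets no gene apart here, and the size of a difference is the more telling value. Higher and lower genes were nearly equal in number and few lay near 0. The median over all tested genes, 0.43, therefore depends on the balance of the signs. A list median set against it below mostly shows which sign was the more common in the list. Rescaling the libraries moved all differences, by a median of -0.30 with median ratios and of 0.21 with library sums, so values under both are given where they change a call. Under them 17.0% and 34.6% of the tested genes were called higher and 31.4% and 15.0% lower.

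Epithelial markers were abundant in both lines. Of 7 tested, 6 were called higher in HCC827_Er and none lower (with median ratios 6 and 1, with library sums 6 and 0), beside 24.7% called higher and 19.7% lower of all tested genes. KRT19, an epithelial keratin, stood at 1084 ± 23.4 FPKM in HCC827_Er and 387 ± 14.8 FPKM in HCC827 (SD, n = 3 each). EPCAM, an epithelial adhesion molecule, stood at 297 ± 26.4 FPKM in HCC827_Er and 30.2 ± 0.429 FPKM in HCC827. KRT8, the most abundant of them in HCC827, went the other way, at 1025 ± 31.7 FPKM in HCC827_Er and 1744 ± 45.9 FPKM in HCC827. The lines did not overlap for KRT8, and its difference of -0.77 (limma adjusted p = 4.15e-07) was under the 2-fold minimum as deposited and passed it with median ratios (-1.11). Markers of other cell types, apart from CD68, which lysosomes of many cells hold, were low or were not analysed here. Of 12 leukocyte markers 6 were listed, summing to between 131 and 144 FPKM in HCC827_Er and between 173 and 179 FPKM in HCC827. CD68 made up most of these sums, at 117 ± 4.36 FPKM in HCC827_Er and 174 ± 3.10 FPKM in HCC827. CSF1R, CORO1A, LAPTM5 and CD14 were called higher at low levels, at most 8.60 FPKM in any library. Of 8 fibroblast markers 3 were listed, at sums of 9.33 to 11.5 FPKM in HCC827_Er and 2.46 to 3.35 FPKM in HCC827, with COL3A1 at 0 in all HCC827_Er libraries and COL1A1 called higher. Of 7 endothelial markers only CDH5 was listed, at 0.52 to 0.75 FPKM in HCC827_Er and at 0 in HCC827. Their part in the differences below was not tested.

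MST1R made the largest move of the 3 genes and was called higher in HCC827_Er. Its FPKM was 28.4, 32.9 and 24.0 in the HCC827_Er libraries, against 3.09, 3.41 and 3.82 in the HCC827 libraries. The lowest HCC827_Er library thus lay far above the highest HCC827 library, and the HCC827_Er libraries differed more among themselves. The means were 28.4 ± 4.41 FPKM in HCC827_Er and 3.44 ± 0.366 FPKM in HCC827 (SD, n = 3 each), an 8.27-fold ratio and a log2 difference of 2.72 (SE 0.13, limma adjusted p = 1.34e-07). Of all tested genes, 96.8% had a lower difference. In level, MST1R stood above 78.9% of the tested genes in HCC827_Er and above 34.6% in HCC827. The call held under both rescalings, at 2.42 with median ratios and 2.94 with library sums, and without each library in turn, at 2.62 to 2.83. A pair of antisense genes overlap MST1R in the annotation and were not analysed here, and the labels do not say that counting used strand.

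MET, its paralogue, was the more abundant receptor in both lines and differed far less. Its FPKM was 154, 172 and 167 in the HCC827_Er libraries, against 98.1, 95.6 and 105 in the HCC827 libraries, and the lines did not overlap. The means were 164 ± 9.41 FPKM in HCC827_Er and 99.4 ± 4.62 FPKM in HCC827 (SD, n = 3 each), a 1.65-fold ratio. The log2 difference of 0.72 (SE 0.061, limma adjusted p = 5.61e-06) was under the 2-fold minimum, and 60.4% of the tested genes had a lower difference. It was 0.37 with median ratios and 0.96 with library sums, so MET stayed positive and uncalled under both, while its size moved by more than 1.5 times with median ratios. Without each library in turn it was 0.68 to 0.76. MET stood above 96.9% of the tested genes in HCC827_Er and above 93.2% in HCC827.

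CAV2 moved the other way and was called lower. Its FPKM was 47.4, 53.9 and 56.7 in the HCC827_Er libraries, against 181, 204 and 181 in the HCC827 libraries. Every HCC827_Er library lay far under every HCC827 library. The means were 52.6 ± 4.77 FPKM in HCC827_Er and 189 ± 13.0 FPKM in HCC827 (SD, n = 3 each), a ratio of 3.58-fold lower, with a log2 difference of -1.82 (SE 0.079, limma adjusted p = 8.92e-08). Only 6.96% of the tested genes had a lower difference. The call held at -2.16 with median ratios, at -1.58 with library sums and at -1.88 to -1.75 without each library in turn. An antisense gene that overlaps the GENCODE span of CAV2, named AC002066.1 there (ENSG00000237813), was listed as well and was called lower too. It stood at 1.39 ± 0.101 FPKM in HCC827_Er and 8.37 ± 1.17 FPKM in HCC827 (SD, n = 3 each; log2 difference -1.97, limma adjusted p = 9.29e-07). Without strand its reads and those of CAV2 cannot be told apart where their exons overlap. Whether the exons overlap was not examined.

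**Figure D1:**
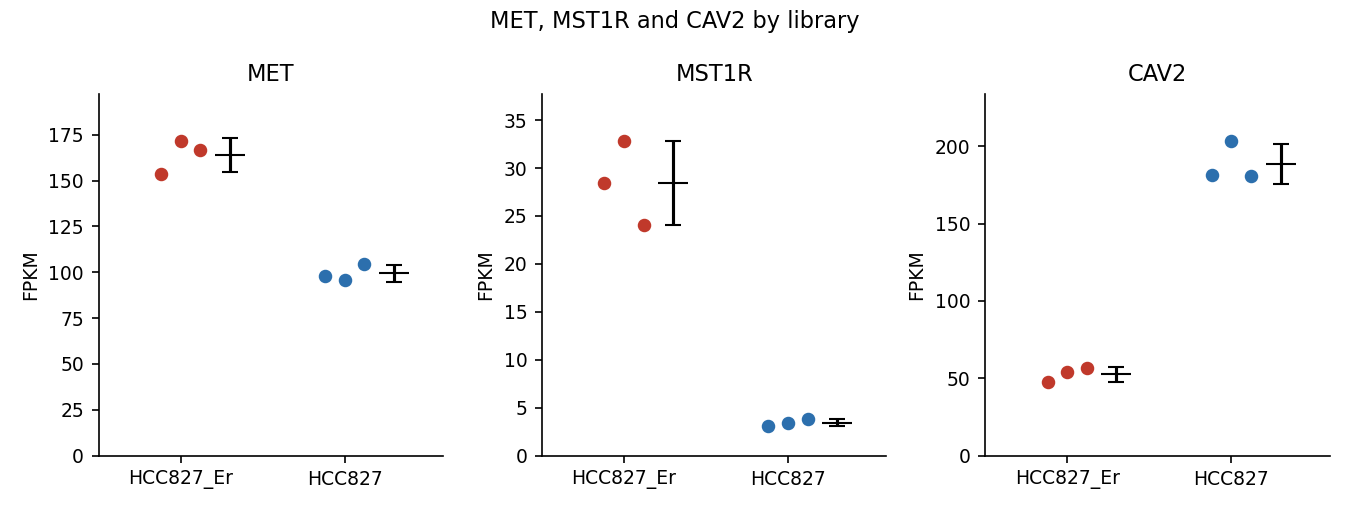
FPKM of MET, MST1R and CAV2 on the vertical axes, each starting at 0, for the 3 HCC827_Er and the 3 HCC827 libraries (points), with the mean and SD beside them. MST1R libraries sat at 24.0 FPKM or more in HCC827_Er and at 3.82 FPKM or less in HCC827, MET differed by a 1.65-fold ratio of means, and CAV2 was lower in every HCC827_Er library.

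The order of the 3 genes, per transcript length, therefore differed between the lines. In HCC827_Er it was MET, then CAV2, then MST1R, and in HCC827 it was CAV2, then MET, then MST1R. No 2 genes overlapped in either line.

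Ratios of 2 genes within a library do not depend on how the library was scaled, so they were set against each other for 3 pairs. The MET to CAV2 ratio of FPKM was 3.24, 3.19 and 2.95 in HCC827_Er libraries, against 0.541, 0.470 and 0.578 in HCC827 libraries. MET was thus above its neighbour in each HCC827_Er library and under it in each HCC827 library, a log2 difference of 2.56 (SE 0.098). The MET to MST1R ratio was 5.40, 5.23 and 6.94 in HCC827_Er libraries, against 31.7, 28.1 and 27.4 in HCC827 libraries, so the gap between the receptors was narrower in HCC827_Er by 2.32 on the log2 scale (SE 0.15), though MET remained the higher in each library. For these pairs and for CAV2 to CAV1, the two-sided exact permutation test gave p = 0.10, also 0.10 after Benjamini-Hochberg adjustment over the 3 ratios, which is the smallest p that 3 against 3 libraries allow.

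**Figure D2:**
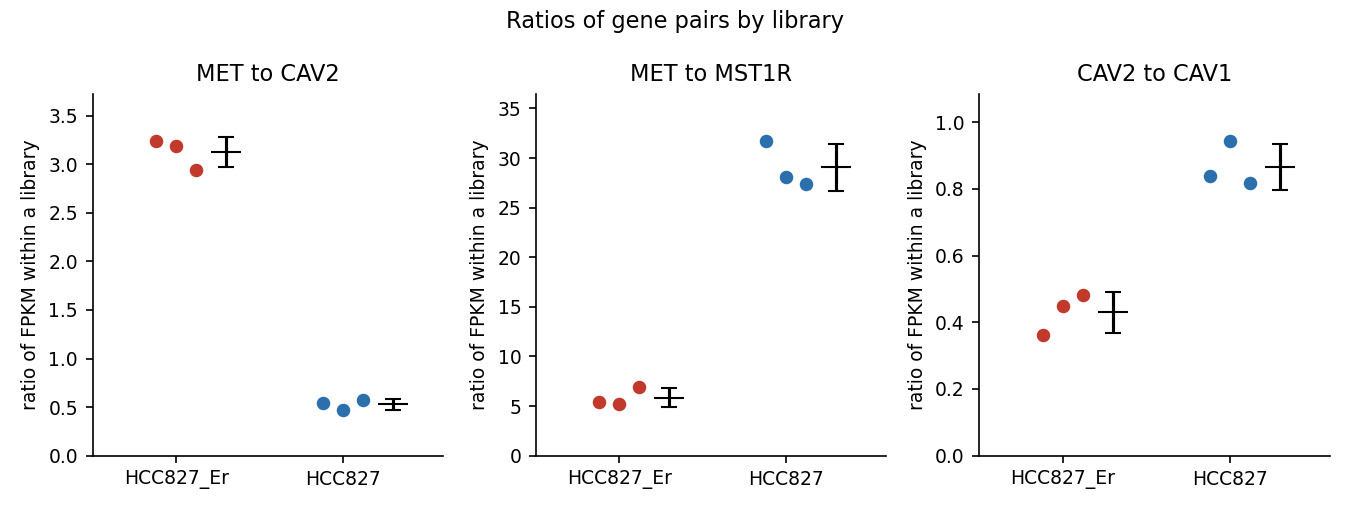
Ratio of FPKM within each library, on axes that start at 0, for MET to CAV2, MET to MST1R and CAV2 to CAV1 in 3 HCC827_Er and 3 HCC827 libraries (points), with the mean and SD. The lines did not overlap for any pair: MET to CAV2 averaged 3.13 in HCC827_Er and 0.530 in HCC827, MET to MST1R 5.86 in HCC827_Er and 29.1 in HCC827, and CAV2 to CAV1 0.431 in HCC827_Er and 0.866 in HCC827.

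Of the ligands, HGF was low in both lines. It stood at 3.34, 3.58 and 4.0 FPKM in HCC827_Er libraries, against 1.09, 1.39 and 1.23 FPKM in HCC827 libraries, and was called higher as deposited (log2 difference 1.05, SE 0.11, limma adjusted p = 2.52e-05). The call rested on the scaling and on 1 library, since the difference was 0.82 with median ratios and 1.00, just under the minimum, without HCC827_Er replicate 3. HGF is made mainly by stromal cells, and in bulk RNA more cells of a type and more RNA per cell cannot be told apart. MST1, the ligand of RON, stood at 7.77, 4.44 and 4.39 FPKM in HCC827_Er libraries, against 8.92, 7.18 and 6.83 FPKM in HCC827 libraries. Its libraries overlapped between the lines and it did not pass the test (log2 difference -0.44, SE 0.20, limma adjusted p = 0.0585). Because nearly identical copies of MST1 exist, how its reads were shared out is uncertain.

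Of 11 names listed as proteases that activate these ligands, 6 were in the table, and these were mostly higher in HCC827_Er. All 6 were tested, and 5 were called higher and none lower (with median ratios 4 and 1, with library sums 5 and 0), beside 24.7% and 19.7% of all tested genes. Their median difference was 1.86, against 0.43 over all tested genes. ST14, which encodes matriptase, a membrane protease that cleaves both ligand precursors, stood at 135, 123 and 115 FPKM in HCC827_Er libraries, against 16.7, 15.0 and 16.0 FPKM in HCC827 libraries (log2 difference 2.89, SE 0.076, limma adjusted p = 5.44e-09). TMPRSS13, a transmembrane serine protease, averaged 14.5 ± 1.41 FPKM in HCC827_Er and 0.0733 ± 0.0586 FPKM in HCC827, and TMPRSS2 averaged 4.31 ± 0.0351 FPKM in HCC827_Er and 0.0267 ± 0.0306 FPKM in HCC827 (SD, n = 3 each). Both genes were close to 0 in HCC827. HPN, the protease hepsin, averaged 3.27 ± 0.233 FPKM in HCC827_Er and 0.693 ± 0.222 FPKM in HCC827. PLAU, the urokinase gene, was the most abundant, at 318 ± 6.86 FPKM in HCC827_Er and 128 ± 2.03 FPKM in HCC827. With median ratios PLAU was at 0.96, under the minimum. F12, coagulation factor XII, was the exception, at 3.51 ± 0.813 FPKM in HCC827_Er and 6.49 ± 0.628 FPKM in HCC827, a difference of -0.75 that was called lower with median ratios alone of the 3 scalings (-1.02).

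The inhibitors of these proteases split: of 3 tested, 1 was called higher and 1 lower (with library sums 1 and 0), beside 24.7% and 19.7% of all tested genes. SPINT1, the Kunitz-type inhibitor of matriptase, stood at 126, 112 and 106 FPKM in HCC827_Er libraries, against 34.5, 29.2 and 33.3 FPKM in HCC827 libraries (log2 difference 1.79, SE 0.087, limma adjusted p = 1.62e-07). SPINT2, its relative, was the most abundant inhibitor, at 262 ± 13.6 FPKM in HCC827_Er and 179 ± 21.3 FPKM in HCC827 (log2 difference 0.55, not called). SERPINA5, which inhibits several plasma proteases, was called lower (log2 difference -1.10), averaging 6.41 ± 0.0874 FPKM in HCC827_Er and 14.8 ± 0.599 FPKM in HCC827, and was not called with library sums (-0.87).

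**Figure D3:**
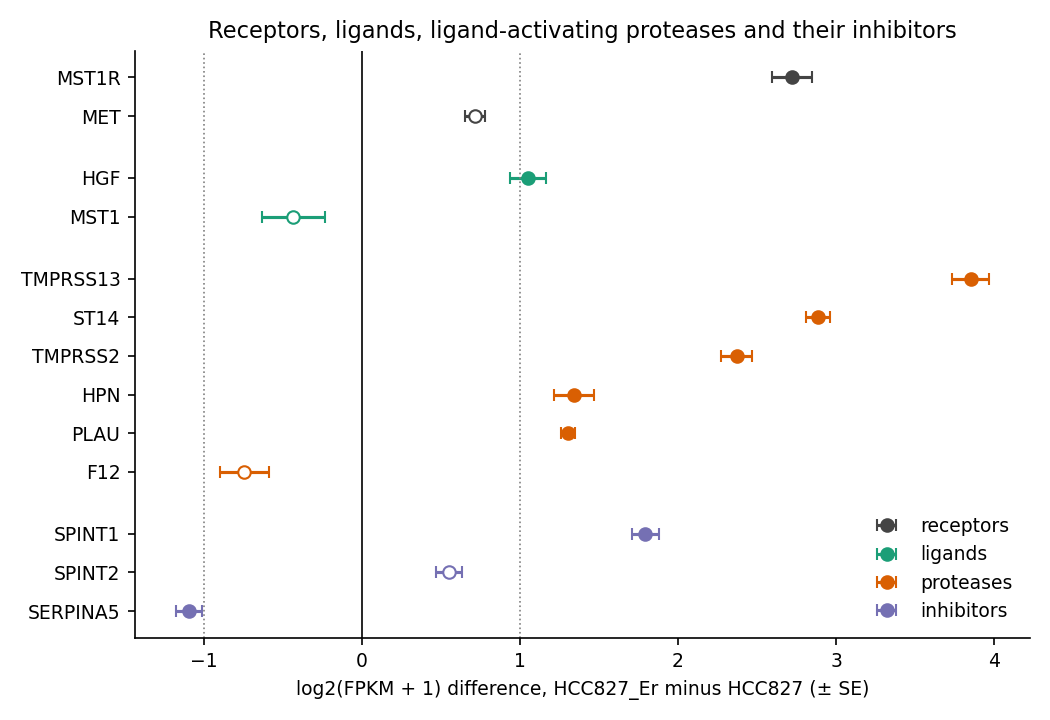
Difference in log2(FPKM + 1), HCC827_Er minus HCC827, on the horizontal axis with its SE for the receptors MET and MST1R, their ligands, the ligand-activating proteases and the inhibitors of those proteases. Filled points were called, open points were not, and dotted lines mark the 2-fold minimum. MST1R (2.72), ST14 (2.89), TMPRSS13 (3.85) and SPINT1 (1.79) lay on the right and SERPINA5 (-1.10) on the left.

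Among the receptor tyrosine kinases, 27 of 58 names were in the table. By mean FPKM, MET ranked first of these 27 in both lines. MST1R ranked 5th in HCC827_Er and 9th in HCC827. Of 18 tested, MET and MST1R among them, 10 were called higher, MST1R included, and 4 lower, beside 24.7% and 19.7% of all tested genes. With median ratios 6 were called higher and 5 lower, beside 17.0% and 31.4%, and with library sums 10 and 3, beside 34.6% and 15.0%, so the share called lower was near that of all tested genes. The median difference was 1.09, against 0.43 over all tested genes. The receptors called lower were FGFR1, AXL, EPHA6 and EPHA2. FGFR1 ranked 15th in HCC827_Er, at 2.08 ± 0.592 FPKM, and 2nd in HCC827, at 73.9 ± 5.09 FPKM. AXL averaged 1.26 ± 0.200 FPKM in HCC827_Er and 32.5 ± 1.21 FPKM in HCC827. MST1R had the largest positive difference of the 18, followed by CSF1R (2.38), the receptor of macrophage colony-stimulating factor and one of the leukocyte markers above. MERTK, of the AXL family, averaged 7.16 ± 0.962 FPKM in HCC827_Er and 1.29 ± 0.110 FPKM in HCC827 (log2 difference 1.83). ROS1, a receptor known from lung cancer fusions, averaged 2.60 ± 0.150 FPKM in HCC827_Er and 0.0633 ± 0.0404 FPKM in HCC827. EPHA2 was not called with library sums (-0.82). DDR1, a collagen receptor, came second to MET in HCC827_Er, at 108.9 ± 8.29 FPKM, against 44.0 ± 2.93 FPKM in HCC827 (log2 difference 1.29, and 0.95, not called, with median ratios). MET's difference of 0.72 was close to that of ERBB3 (0.73), the EGFR relative that MET can phosphorylate, and neither was called. EPHA4 was called as deposited, with 5.46 FPKM in HCC827_Er replicate 2 and at most 1.62 FPKM elsewhere, and was not called with median ratios (0.85), without that library (0.56) or without HCC827 replicate 2 (0.90).

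**Figure D4:**
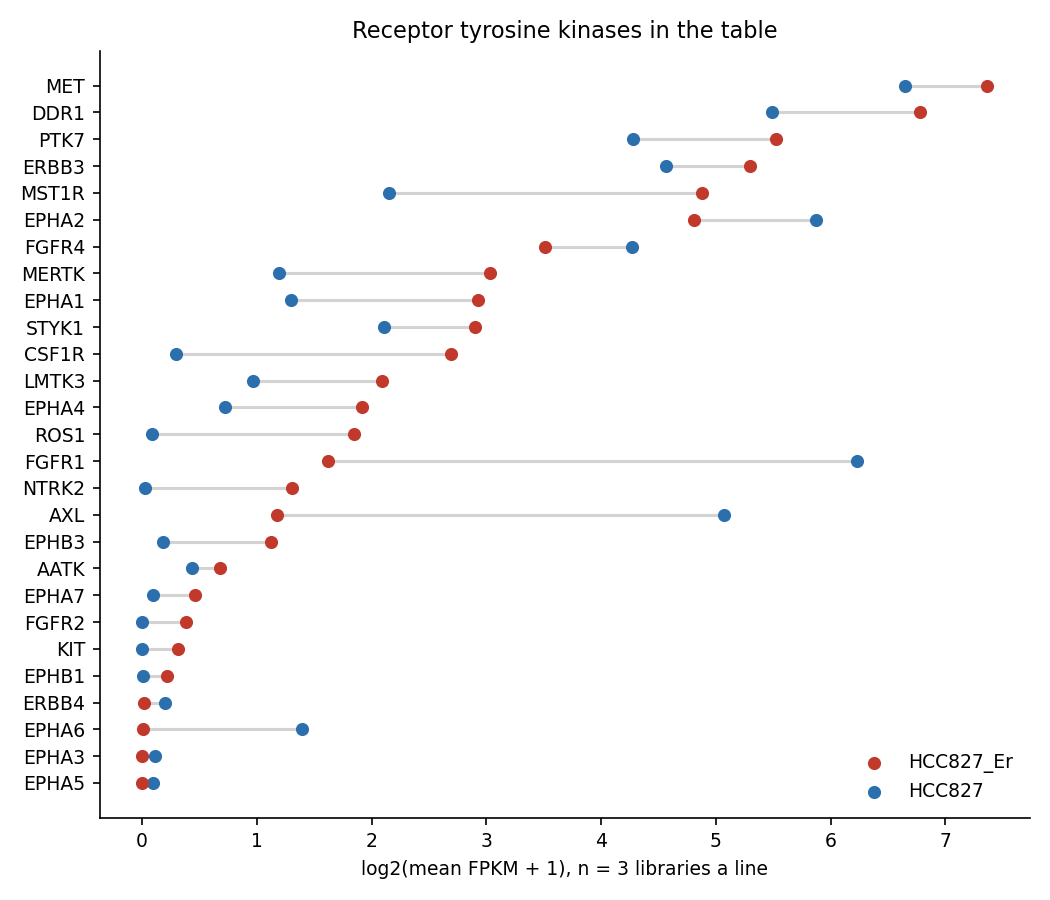
Level of the 27 receptor tyrosine kinases in the table, as log2(mean FPKM + 1) over 3 libraries a line on the horizontal axis, in HCC827_Er (red) and HCC827 (blue), ordered by the level in HCC827_Er. Of these 27, MET was highest in both lines, MST1R ranked 5th in HCC827_Er and 9th in HCC827, and FGFR1 and AXL were lower in HCC827_Er.

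Among the membrane partners of MET, 7 of 17 tested were called higher and 4 lower (with median ratios 6 and 4, with library sums 9 and 2), beside 24.7% and 19.7% of all tested genes, so the share called lower was near that of all tested genes. CD44, the adhesion receptor whose variants act as co-receptors of MET, was called lower, at 203, 193 and 208 FPKM in HCC827_Er libraries, against 466, 454 and 462 FPKM in HCC827 libraries (log2 difference -1.19; -0.94 with library sums, not called). SDC2, a heparan sulfate proteoglycan, was called lower as well, at 0.297 ± 0.116 FPKM in HCC827_Er and 12.9 ± 2.88 FPKM in HCC827. Its relative SDC1 was called higher, at 72.5 ± 4.24 FPKM in HCC827_Er and 8.77 ± 1.74 FPKM in HCC827, opposite in direction to SDC2. MUC1, a transmembrane mucin, was called higher at 166 ± 14.9 FPKM in HCC827_Er and 41.8 ± 0.499 FPKM in HCC827. CD82, a tetraspanin, was called higher at 11.7 ± 0.775 FPKM in HCC827_Er and 2.63 ± 0.982 FPKM in HCC827. The others called lower were AXL, given above, and EPHA2. ITGB4, the integrin beta-4 gene that cooperates with MET, was called higher at 32.9 ± 1.94 FPKM in HCC827_Er and 14.5 ± 1.08 FPKM in HCC827, and not called with median ratios (0.80).

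Downstream of the receptors, few adaptors were in the table, 7 of 25 names, and of 5 tested none was called higher and 1 lower (with median ratios 0 and 2, with library sums 0 and 0), beside 24.7% and 19.7% of all tested genes. RANBP10, a relative of the MET-binding protein RANBP9, was called lower, at 7.89 ± 0.194 FPKM in HCC827_Er and 17.9 ± 1.10 FPKM in HCC827, but not with library sums (-0.86). STAT3, a transcription factor downstream of MET, stood at 63.0 ± 1.76 FPKM in HCC827_Er and 109.7 ± 8.53 FPKM in HCC827 (log2 difference -0.79, not called; -1.13 with median ratios, called). PTPN11, the phosphatase SHP2 that relays MET signals, stood at 55.3 ± 2.57 FPKM in HCC827_Er and 82.4 ± 4.77 FPKM in HCC827 and was not called. GAB1, the main docking protein of MET, was not analysed here.

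Of 34 names listed for the restraint or turnover of MET signals, 11 were in the table and all of these were tested. Among the 11, 5 were called higher and 1 lower (with median ratios 5 and 3, with library sums 7 and 1), beside 24.7% and 19.7% of all tested genes. Their median difference was 0.96, against 0.43 over all tested genes. These values include TNS4, described below, and DECR1 (-0.59, not called), a mitochondrial reductase rather than a known regulator of MET. DUSP6, which dephosphorylates ERK, was called higher at 61.0 ± 1.78 FPKM in HCC827_Er and 6.43 ± 1.09 FPKM in HCC827. MUC20, a mucin that binds the MET tail, was called higher at 12.6 ± 1.32 FPKM in HCC827_Er and 1.05 ± 0.353 FPKM in HCC827. TNS4, a tensin that has been reported to stabilise MET rather than restrain it, was called higher at 4.27 ± 0.178 FPKM in HCC827_Er and 0.293 ± 0.197 FPKM in HCC827. SH3KBP1, the endocytic partner of CBL, and CBLC, an epithelial CBL ubiquitin ligase, were called higher too. SH3KBP1 averaged 23.9 ± 1.23 FPKM in HCC827_Er and 7.23 ± 0.441 FPKM in HCC827, and CBLC averaged 27.1 ± 2.12 FPKM in HCC827_Er and 10.2 ± 0.590 FPKM in HCC827. PTPRB, a receptor phosphatase, was the member called lower (0.377 ± 0.0153 FPKM in HCC827_Er and 3.08 ± 0.517 FPKM in HCC827). ADAM10, which sheds the MET ectodomain, stood at 68.2 ± 1.10 FPKM in HCC827_Er and 116.6 ± 3.12 FPKM in HCC827, with a difference of -0.77 that was called with median ratios alone of the 3 scalings (-1.10).

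Genes that HGF is known to induce went in both directions. Of 15 tested, 3 were called higher and 6 lower (with median ratios 3 and 7, with library sums 4 and 5), beside 24.7% and 19.7% of all tested genes, and the median difference was -0.66, against 0.43 over all tested genes. Those called higher were VEGFA (320.0 ± 7.39 FPKM in HCC827_Er and 93.7 ± 4.30 FPKM in HCC827), the ETS factor ETV4 (16.3 ± 1.30 FPKM in HCC827_Er and 4.04 ± 0.284 FPKM in HCC827) and the gelatinase MMP9 (1.95 ± 0.266 FPKM in HCC827_Er and 0.280 ± 0.104 FPKM in HCC827). Those called lower with the largest differences were THBS1 (thrombospondin-1, log2 difference -2.36), the immediate early gene EGR1 (-2.20) and the matrix protease gene MMP7 (-2.17). MMP7 averaged 20.01 ± 1.72 FPKM in HCC827_Er and 93.3 ± 3.80 FPKM in HCC827. PLAUR, the urokinase receptor, stood at 73.6 ± 2.30 FPKM in HCC827_Er and 44.5 ± 4.58 FPKM in HCC827, a difference of 0.72 like that of MET, and was not called.

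Of 17 transcription factors linked to the MET promoter or gene, 5 were tested, none was called higher and 1 lower (with median ratios 0 and 2, with library sums 1 and 1), beside 24.7% and 19.7% of all tested genes. JUN, a subunit of AP-1, was called lower at 61.3 ± 1.02 FPKM in HCC827_Er and 180.5 ± 14.1 FPKM in HCC827. HIF1A stood at 288 ± 11.7 FPKM in HCC827_Er and 418 ± 19.9 FPKM in HCC827 and was not called. AHR, the aryl hydrocarbon receptor, had the only positive difference, 0.97, at 50.2 ± 6.15 FPKM in HCC827_Er and 25.0 ± 1.66 FPKM in HCC827. It passed the minimum with library sums (1.21), with quantile normalization (1.06), without HCC827_Er replicate 1 (1.07) and without HCC827 replicate 1 (1.00).

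The list of caveola genes held CAV2 and 7 others in the table, of which 6 were tested. With CAV2 itself, 1 of 7 was called higher and 2 lower, which is near the 24.7% and 19.7% of all tested genes. With median ratios 1 was called higher and 4 lower, beside 17.0% and 31.4%. With library sums it was 1 and 2, beside 34.6% and 15.0%. The median difference was -0.70, against 0.43 over all tested genes. CAVIN1, the coat protein needed to form caveolae, had a difference close to that of CAV2 and was called lower, at 33.2, 31.8 and 31.4 FPKM in HCC827_Er libraries, against 125, 119 and 119 FPKM in HCC827 libraries (log2 difference -1.88, SE 0.055, limma adjusted p = 9.68e-09). CAV1 stood at 131, 120 and 118 FPKM in HCC827_Er libraries, against 216, 215 and 222 FPKM in HCC827 libraries. The lines did not overlap for CAV1, but its difference of -0.82 (SE 0.054) was under the minimum, and it was called lower with median ratios alone of the 3 scalings (-1.16). EHD2, which stabilises the neck of caveolae, likewise passed with median ratios alone of the 3 scalings, at 30.1 ± 1.81 FPKM in HCC827_Er and 49.5 ± 3.70 FPKM in HCC827 (-0.70 as deposited and -1.03 with median ratios). CAV2 was below CAV1 in every library, with a ratio of 0.362, 0.450 and 0.481 in HCC827_Er libraries, against 0.838, 0.945 and 0.817 in HCC827 libraries. This ratio was lower in HCC827_Er by a log2 difference of -1.02 (SE 0.14), and the pair was chosen after the values had been seen. PACSIN1, a membrane-bending protein, was the member called higher, at 2.73 ± 0.496 FPKM in HCC827_Er and 0.440 ± 0.125 FPKM in HCC827. CAVIN2 and CAVIN3 were not called and CAVIN4 was too low to test, at 0.08 FPKM in each HCC827_Er library. Of the other raft genes, MAL2, a transport protein of polarised epithelial cells, was called higher at 98.0 ± 8.66 FPKM in HCC827_Er and 31.4 ± 1.26 FPKM in HCC827, and FLOT2 and STOM, scaffold proteins of rafts, were called lower with median ratios alone of the 3 scalings (-1.16 and -1.05).

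Around MET on chromosome 7, 5 of the 6 other protein-coding genes tested within 5 Mb had a difference of the opposite sign. Of all tested genes, 47.7% were lower at an adjusted p under 0.05. Within 2 Mb of its start, 6 of 13 other protein-coding genes were in the table, and CAV1 and CAV2 were the only ones tested. The other 4 were low, with TFEC, ASZ1 and ANKRD7 at 0 in all 3 HCC827_Er libraries and CFTR at no more than 0.04 FPKM there, and at no more than 1.56 FPKM in any HCC827 library. Within 5 Mb, 1 of 6 tested was called higher and 4 lower, and within 20 Mb 8 of 53 were called higher and 13 lower, beside 24.7% and 19.7% of all tested genes, so the share called lower within 20 Mb was near that of all tested genes. The median difference within 20 Mb was -0.60, against 0.43 over all tested genes. FAM3C, which encodes a secreted protein and starts 4724 kb beyond the start of MET, was the one called higher within 5 Mb, at 194, 231 and 220 FPKM in HCC827_Er libraries, against 38.4, 40.2 and 41.0 FPKM in HCC827 libraries (log2 difference 2.40, limma adjusted p = 1.07e-08). Those called lower within 5 Mb besides CAV2 were DOCK4 (-2.21), a regulator of Rac, FOXP2 (-1.47), a transcription factor, and TSPAN12 (-1.15; -0.93 with library sums, not called). Of the 35 neighbours listed by name, 11 were in the table. The 6 tested were the same genes as those within 5 Mb, CAV2 among them, so the counts, 1 called higher and 4 lower, are the same. MET itself, not called, was the only tested protein-coding gene with a positive difference between DOCK4 and TSPAN12. DNA copy number was not measured.

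On chromosome 3, MST1R had the largest positive difference of the tested protein-coding genes within 20 Mb. Within 2 Mb, 22 of 98 other protein-coding genes were tested, 4 were called higher and none lower, beside 24.7% and 19.7% of all tested genes. Their median difference was 0.10, and within 5 Mb it was -0.52. The value of 0.10 is the midpoint of a gap from MST1 (-0.44) to MAPKAPK3 (0.64), inside which none of these 22 genes lay. The highest of these 22 was PFKFB4, a regulator of glycolysis, at 28.2 ± 1.29 FPKM in HCC827_Er and 9.55 ± 0.147 FPKM in HCC827 (log2 difference 1.47). COL7A1, the collagen of anchoring fibrils, had a difference of 1.45 at low levels, and UBA7, the activating enzyme of the ISG15 pathway, which starts 89.9 kb from MST1R, had one of 1.31. AMT, the aminomethyltransferase gene, was called as deposited (1.05), but neither with median ratios (0.83) nor without HCC827 replicate 3 (0.99). TRAIP, the nearest tested protein-coding neighbour, had a difference of 0.89 and was called with library sums (1.11) and without HCC827_Er replicate 2 (1.03). MST1, which encodes the ligand, starts 214.4 kb from its receptor gene. Of the 51 names listed around MST1R, 13 were in the table and tested, 3 were called higher, MST1R among them, and none lower (with median ratios 2 and 2, with library sums 6 and 0). Apart from MST1R, these are among the genes within 2 Mb counted above.

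**Figure D5:**
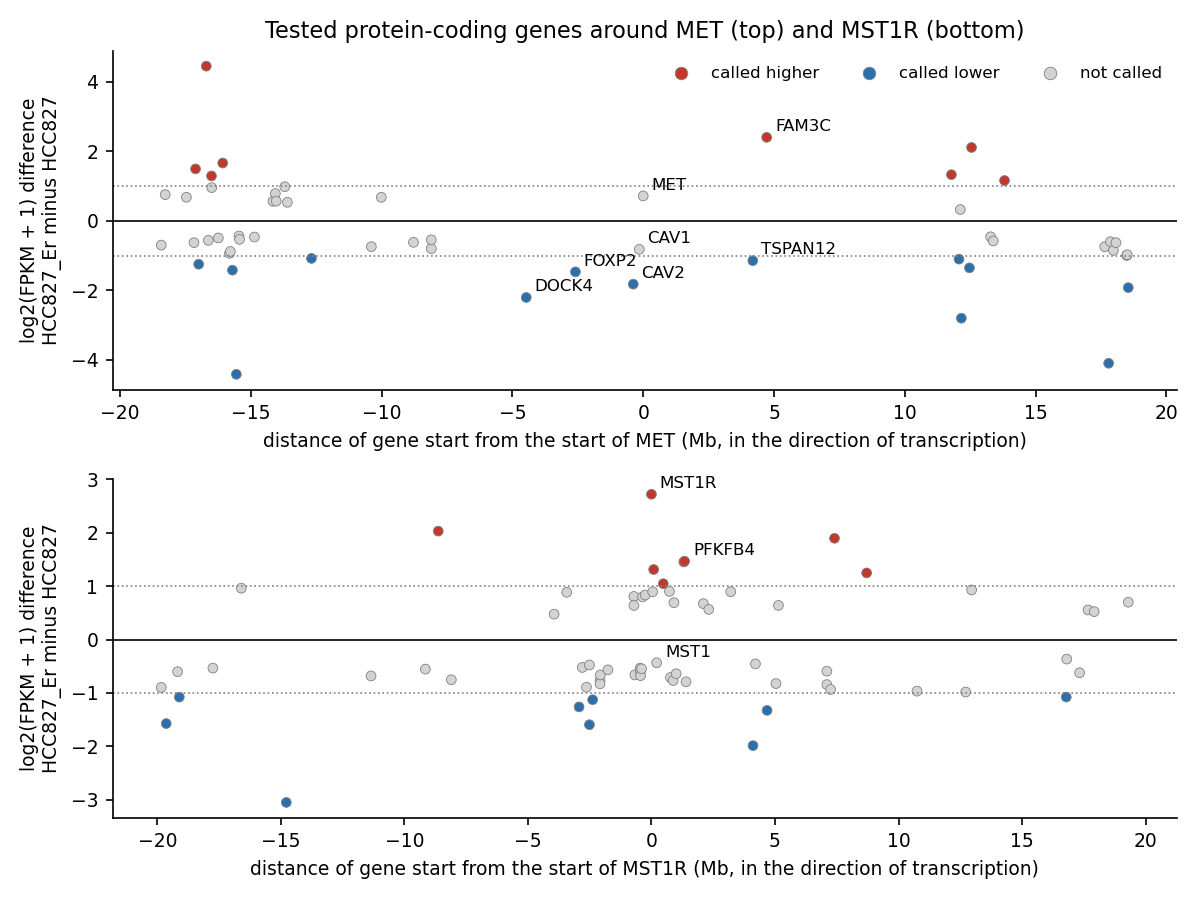
Difference in log2(FPKM + 1), HCC827_Er minus HCC827, on the vertical axes for tested protein-coding genes within 20 Mb, against the distance of the gene start from the start of MET (top) or MST1R (bottom) in Mb. Red points were called higher, blue lower and grey not called, and dotted lines mark the 2-fold minimum. MET (0.72) lay above CAV1 (-0.82) and CAV2 (-1.82) beside it, and MST1R (2.72) was the highest point of its window.

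By the smallest root mean square difference between centred log2(FPKM + 1) profiles over the 6 libraries, the profiles most like that of MET among 371 protein-coding genes of similar level were those of RBMX, an RNA-binding protein (0.018), DKC1, the pseudouridine synthase dyskerin (0.026), and TPX2, a spindle assembly factor (0.044). RBMX stood at 187 ± 7.52 FPKM in HCC827_Er and 115 ± 5.34 FPKM in HCC827. For MST1R, among 1633 genes, they were COL17A1, a collagen of hemidesmosomes (0.11), GPX2, a glutathione peroxidase of epithelia (0.13), and KRT15, a basal keratin (0.14). COL17A1 stood at 39.5 ± 4.04 FPKM in HCC827_Er and 5.48 ± 0.579 FPKM in HCC827. For CAV2, among 459 genes, they were MAP1LC3B, which encodes an autophagy protein of the ATG8 family (0.088), CERS2, a ceramide synthase (0.089), and C12orf75 (0.096). MAP1LC3B stood at 30.9 ± 2.32 FPKM in HCC827_Er and 121 ± 5.59 FPKM in HCC827. With 2 lines, such a profile holds little more than the size of the difference, and the 6 libraries fall into 2 groups.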

How the data were processed

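RNA was made into 3 libraries labelled HCC827_Er and 3 labelled HCC827 with the TruSeq RNA kit of Illumina, as the labels' protocols state, which speak of tissue samples while the cell line field names the lines. The authors deposited 1 table of FPKM per gene and library, as read from the table's name. Per the submitters' processing notes, fastp, HISAT2 and StringTie were used and GRCh38.p14 and hg19 were named without their roles. Tool versions, the annotation and any strand setting were not given in the sources used here, nor was the reason why these genes were listed. Depth is unknown, since low values showed no steps of single reads. Libraries of a line shared at most 317 of 6641 values, and at most 4 at or above 10 FPKM, so none was counted as a copy.

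Symbols matched for 6636 identifiers, and GENCODE 29 listed 6353. Values were used as log2(FPKM + 1). Genes with at least 1 FPKM in 3 or more libraries were tested (5276, with 1365 set aside) by a linear model with an intensity trend in limma 3.58.1 (R 4.3.3), cell line being its only term, and Benjamini-Hochberg adjustment over all tested genes. 1 gene of the lists is not reported here and was left out of their counts. The steps were tested on simulated data. Ratios were compared with exact permutation tests in scipy 1.17.1. The members, the 18 gene lists, the rule for named genes and the tests were chosen with earlier results of these data known. Named genes were the members, list members with the largest called differences (or, where fewer than 3 were called, the most abundant tested ones), ligands, proteases, inhibitors, caveola genes and neighbours within 2 Mb, and the 3 most similar profiles per member. Outside this rule, DDR1, ERBB3, EPHA4, CD44, ITGB4, ADAM10, AHR, PLAUR and SEMA6C, and genes that complete a count of 5 or fewer, were chosen after their values were seen. Alternatives were other pseudocounts and minima, limma without trend or robust, no minimum difference, a replicate block, and leaving out single libraries. They also included 3 rescalings, by median ratios, library sums and quantile normalization.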

Additional observations from a re-analysis of the deposited data

How the results depend on the processing

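Under the 17 alternatives, MET, MST1R and CAV2 kept their direction. MST1R stayed called higher and CAV2 called lower in each of them, MST1R at 1.98 to 3.01 (pseudocounts of 5 and 0.1). MET was called only with no minimum difference, at its value of 0.72. The count of called genes moved more. It was 579 higher and 506 lower with a pseudocount of 5, 867 higher with a minimum of 5 FPKM, 2672 higher and 2515 lower with no minimum difference, and 1657 lower (896 higher) with median ratios, against 1304 and 1041 as deposited. Without each library in turn it was 1298 to 1334 higher and 1034 to 1056 lower. By design, the pseudocount and the rescaling change the size of the differences, and the minima change the threshold or which genes are tested. Of 232 other genes or list members followed through the same alternatives none changed direction, while 58 lost and 118 gained a call in at least 1 of them. Dropping the minimum difference by itself gives a call to every uncalled gene with an adjusted p under 0.05. The 118 gains therefore say little about the other alternatives. With quantile normalization, among others, AHR gained a call (1.06), while MMP9 (0.94), CD14 (0.96), CD44 (-0.89) and EPHA2 (-0.98) lost theirs. Alternatives for the CAV2 to CAV1 ratio were chosen after seeing the data.

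Same-numbered libraries of the lines had deviations that correlated at 0.106, -0.022 and 0.049, and differently numbered ones at -0.09 to 0.041. The values 0.106 and 0.049 were the highest of all pairs. All were weak, and whether the numbers pair the libraries cannot be told from them. With the replicate block the counts were 1304 and 1041, as without it, and the 3 members kept their calls (MET 0.72, MST1R 2.72, CAV2 -1.82). In this balanced design the block leaves every difference as it was, and nearly all genes pass the adjusted p. Unchanged counts and calls were thus all but fixed in advance, and the same holds for limma without trend or robust. The ratios kept their sign in every alternative, MET to CAV2 at 2.44 to 2.63 and MET to MST1R at -2.45 to -1.28. Without depth, the counting error of low genes such as HGF and HPN is unknown.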

Other observations

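MET and RON share their extracellular sema domain with plexins and semaphorins, the receptors and ligands of axon guidance, and 18 of 29 listed names were in the table. Of 16 tested, 10 were called higher in HCC827_Er and 2 lower (with median ratios 8 and 3, with library sums 11 and 2), beside 24.7% and 19.7% of all tested genes, with a median difference of 1.21 against 0.43 over all tested genes. SEMA4B averaged 138 ± 13.5 FPKM in HCC827_Er and 30.5 ± 1.27 FPKM in HCC827 (SD, n = 3 each; log2 difference 2.14, limma adjusted p = 2.73e-08). The plexin gene PLXND1 averaged 19.6 ± 2.27 FPKM in HCC827_Er and 3.45 ± 0.503 FPKM in HCC827, and PLXNB3, of the plexin class that can associate with MET and RON, averaged 29.2 ± 4.25 FPKM in HCC827_Er and 7.80 ± 2.49 FPKM in HCC827. SEMA3A averaged 10.8 ± 3.75 FPKM in HCC827_Er and 1.53 ± 0.138 FPKM in HCC827. The members called lower were SEMA6A, at 0.223 ± 0.114 FPKM in HCC827_Er and 11.3 ± 1.06 FPKM in HCC827, and SEMA3C, at 12.5 ± 0.766 FPKM in HCC827_Er and 35.3 ± 0.811 FPKM in HCC827. SEMA6C was called as deposited but stood at 6.64 FPKM in HCC827_Er replicate 1 and at no more than 1.96 FPKM in the other libraries, and was not called without that library (0.71).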
